A study of Mus musculus with 33 samples.

Results

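Ribosome biogenesis genes encode the nucleolar proteins that transcribe, cut, modify and assemble ribosomal RNA (rRNA). The genes described here were given as a list of 41 symbols. Of these, 40 were matched to an Ensembl gene among the 37583 gene IDs counted in every library, and all 40 passed the filter on low counts, as did 17326 genes in all. The remaining gene, Noc2l, could not be matched by ID and was not analysed here. The list was drawn up with earlier results of these libraries known, and no expression value enters its rule.

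The study sequenced poly-A RNA of mouse cells on the way from fibroblast to induced pluripotent stem (iPS) cell, with the stated aim of isolating rare intermediates of reprogramming. It compared mouse embryonic fibroblasts (MEFs), grown in MEF medium, with cells reprogrammed for 3, 6, 9 or 12 days and with cells of the iPS stage, grown in embryonic stem cell medium to which doxycycline and ascorbic acid (AA in the labels) were added. All cells came from the strain 129SV/Jae/C57BL6J, were detached with trypsin, stained with antibodies and collected by flow cytometry. At each stage after MEFs the cells were sorted into a fraction without SSEA1 (SSEA1neg) and a fraction with it (SSEA1pos), SSEA1 being a carbohydrate antigen of the surface of mouse pluripotent cells. The 11 groups held 3 libraries each, 33 in all, with 8.93 to 41.69 M reads counted in genes (median 23.15 M). The labels name no transgene, although doxycycline is the usual switch of inducible reprogramming factors, and nothing in them tells whether the replicates of a group were grown apart. The p-values therefore speak only of the spread among these libraries, which may be technical. The MEF medium and the reprogramming medium differ, so in every comparison with MEFs the medium and the stage cannot be told apart.

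A ribosome begins as a long precursor rRNA, which RNA polymerase I transcribes from rDNA repeats in the nucleolus. Small nucleolar ribonucleoproteins (snoRNPs) then modify it, box C/D particles by methylating riboses and box H/ACA particles by turning uridines into pseudouridines. A large particle, the small subunit (SSU) processome, folds and cuts the part that becomes the small (40S) subunit, and another series of pre-60S particles builds the large subunit. Many genes of this pathway are textbook targets of the transcription factor Myc, which binds the E-box CACGTG, and cells that grow and divide fast make more of these proteins. The 40 genes were ordered by role: 6 nucleolar proteins that act in several steps, 3 genes of the RNA polymerase I machinery, 3 of box C/D and 4 of box H/ACA snoRNPs, 13 of the small subunit and 11 of the large subunit.

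Promoter windows of 300 bases (250 before the start of transcription to 50 after it) were taken from RefSeq on build GRCm38.p6, and 35 of the 40 genes had one. The E-box CACGTG, which is its own reverse complement and so reads the same on both strands, occurred in the windows of 9 of these 35 genes (25.7%), against 8.9% of 17492 protein-coding genes and 8.1% of all 27025 genes in the same table. By role, it stood in 5 of 12 small subunit genes with a window, in 2 of 9 large subunit genes, in 1 of 5 nucleolar proteins, in 1 of 3 RNA polymerase I genes, and in none of 2 box C/D and 4 box H/ACA genes. The 9 genes were Mybbp1a, Rrn3, Wdr43, Utp18, Utp20, Imp4, Tsr1, Pes1 and Nop2. A match is a description of letters and not a bound site, and a window without these letters says nothing about binding.

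Windows of 4 of the genes whose levels are given in full below are shown to let the place of the E-box be compared between roles. Each is written 5′ to 3′ on the strand of its gene, with CACGTG in capitals. Rrn3 (chr16:13780449-13780748, plus strand) carries it at -215 and -48, Wdr43 (chr17:71615965-71616264, plus strand) at +18, Utp20 (chr10:88826765-88827064, minus strand) at +38 and Pes1 (chr11:3963725-3964024, plus strand) at +3, each position being that of the first letter counted from the first transcribed base as +1.
Rrn3: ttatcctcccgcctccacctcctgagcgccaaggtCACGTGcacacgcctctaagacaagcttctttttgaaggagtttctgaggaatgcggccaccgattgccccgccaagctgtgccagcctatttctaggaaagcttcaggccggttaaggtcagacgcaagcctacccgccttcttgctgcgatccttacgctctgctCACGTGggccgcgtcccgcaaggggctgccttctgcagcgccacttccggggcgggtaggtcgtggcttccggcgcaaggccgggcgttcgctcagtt
Wdr43: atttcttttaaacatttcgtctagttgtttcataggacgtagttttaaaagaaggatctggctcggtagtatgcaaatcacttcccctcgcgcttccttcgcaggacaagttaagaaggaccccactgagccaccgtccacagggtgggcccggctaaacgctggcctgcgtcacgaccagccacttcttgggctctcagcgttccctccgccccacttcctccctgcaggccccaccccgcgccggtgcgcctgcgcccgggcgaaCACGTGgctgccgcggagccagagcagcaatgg
Utp20: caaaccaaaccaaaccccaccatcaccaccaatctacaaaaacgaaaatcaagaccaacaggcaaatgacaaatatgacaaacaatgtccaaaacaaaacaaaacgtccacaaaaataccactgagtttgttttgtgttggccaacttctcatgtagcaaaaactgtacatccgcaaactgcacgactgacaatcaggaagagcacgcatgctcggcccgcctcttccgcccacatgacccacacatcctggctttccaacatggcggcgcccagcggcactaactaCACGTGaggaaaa
Pes1: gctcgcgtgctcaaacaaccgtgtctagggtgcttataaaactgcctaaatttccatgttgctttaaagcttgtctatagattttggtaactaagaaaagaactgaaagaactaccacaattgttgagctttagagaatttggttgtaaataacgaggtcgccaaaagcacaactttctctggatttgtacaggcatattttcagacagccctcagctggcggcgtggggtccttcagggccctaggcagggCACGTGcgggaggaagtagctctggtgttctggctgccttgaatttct
Over all 9 genes with the E-box, it lay upstream of the start site in Rrn3, Imp4 (-121), Nop2 (-60) and Utp18 (-20), and within the first transcribed bases in Wdr43, Utp20, Pes1, Tsr1 (+25) and Mybbp1a (+41).

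The labels were checked against marker genes. The summed level of 6 fibroblast markers was 78544 to 87652 CPM (TMM-normalised read counts scaled to a common library size) in MEFs, 2593 to 16406 CPM over all SSEA1neg libraries and 35.7 to 1405 CPM over all SSEA1pos libraries. That of 6 pluripotency markers was 1.67 to 3.14 CPM in MEFs, 2.72 to 3.53 in day 3 SSEA1pos cells, 1700 to 3100 in day 12 SSEA1pos cells and 3746 to 5752 in iPS SSEA1pos cells. Of the iPS SSEA1neg libraries, replicate 3 stood apart. Its pluripotency markers summed to 2245 CPM (99.9 and 337 in replicates 1 and 2), its keratinocyte markers to 1.94 CPM (55 and 78.6) and its endoderm markers to 21.7 CPM (55.3 and 87.7), while its fibroblast markers (16406 CPM) were close to those of replicate 2 (15326 CPM). Counts of called genes that rest on it are given with and without it for the listed ribosome biogenesis genes as a set and for ribosomal protein genes. So are the iPS SSEA1neg differences of Dkc1 and Nop10 from MEFs. Other results that rest on it, such as those by role, of the other gene lists and of Myc, are given with it only. Summed macrophage markers were high in replicate 2, at 113 CPM in MEFs and 34.4, 148, 196, 290 and 455 CPM in the SSEA1neg stages, and were at most 31.7 CPM in the other MEF and SSEA1neg libraries and 101 CPM in SSEA1pos libraries. Summed endothelial markers were 1.39 to 2.03 CPM in MEFs, 1.01 to 3.53 in day 3 SSEA1pos, 33.7 to 67.9 in day 12 SSEA1pos and 139 to 182 CPM in iPS SSEA1pos libraries, most of it Pecam1 at the iPS stage (156, 138 and 181 CPM), and at most 55.5 CPM in SSEA1neg libraries. Endoderm markers reached 87.7, keratinocyte markers 78.6 and trophoblast markers 27 CPM, each in an iPS SSEA1neg library. In day 12 SSEA1pos libraries endoderm markers summed to 48.7, 2.81 and 2.99 CPM, so that replicate 1 stood apart there. The part of these other cells in the results was not tested.

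As a set, the 40 genes stood higher in all reprogramming stages of the SSEA1pos fraction than in MEFs, and in the SSEA1neg fraction they stood near that level at day 3 and closer to the MEF level from day 6 on. Their mean level was 6.34, 5.95 and 5.79 on the log2(CPM + 1) scale in the 3 MEF libraries. In the SSEA1pos fraction it was 7.77, 7.29 and 7.41 at day 3, 7.30, 7.05 and 7.0 at day 6, 7.48, 7.19 and 7.36 at day 9, 7.62, 7.53 and 7.17 at day 12, and 7.35, 7.21 and 7.30 at the iPS stage. In the SSEA1neg fraction it was 7.39, 6.95 and 7.18 at day 3, 6.49, 6.37 and 6.56 at day 6, 6.21, 6.24 and 6.49 at day 9, 6.08, 6.23 and 6.14 at day 12, and 5.89, 5.68 and 6.87 at the iPS stage. Every SSEA1pos library lay above every MEF library, the fractions overlapped at day 3 only, and the iPS SSEA1neg replicate 3 lay between the other 2 libraries of its group and the SSEA1pos libraries. In bulk samples a change in the share of cells that express a gene and a change in the RNA each cell holds cannot be told apart.

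**Figure D1:**
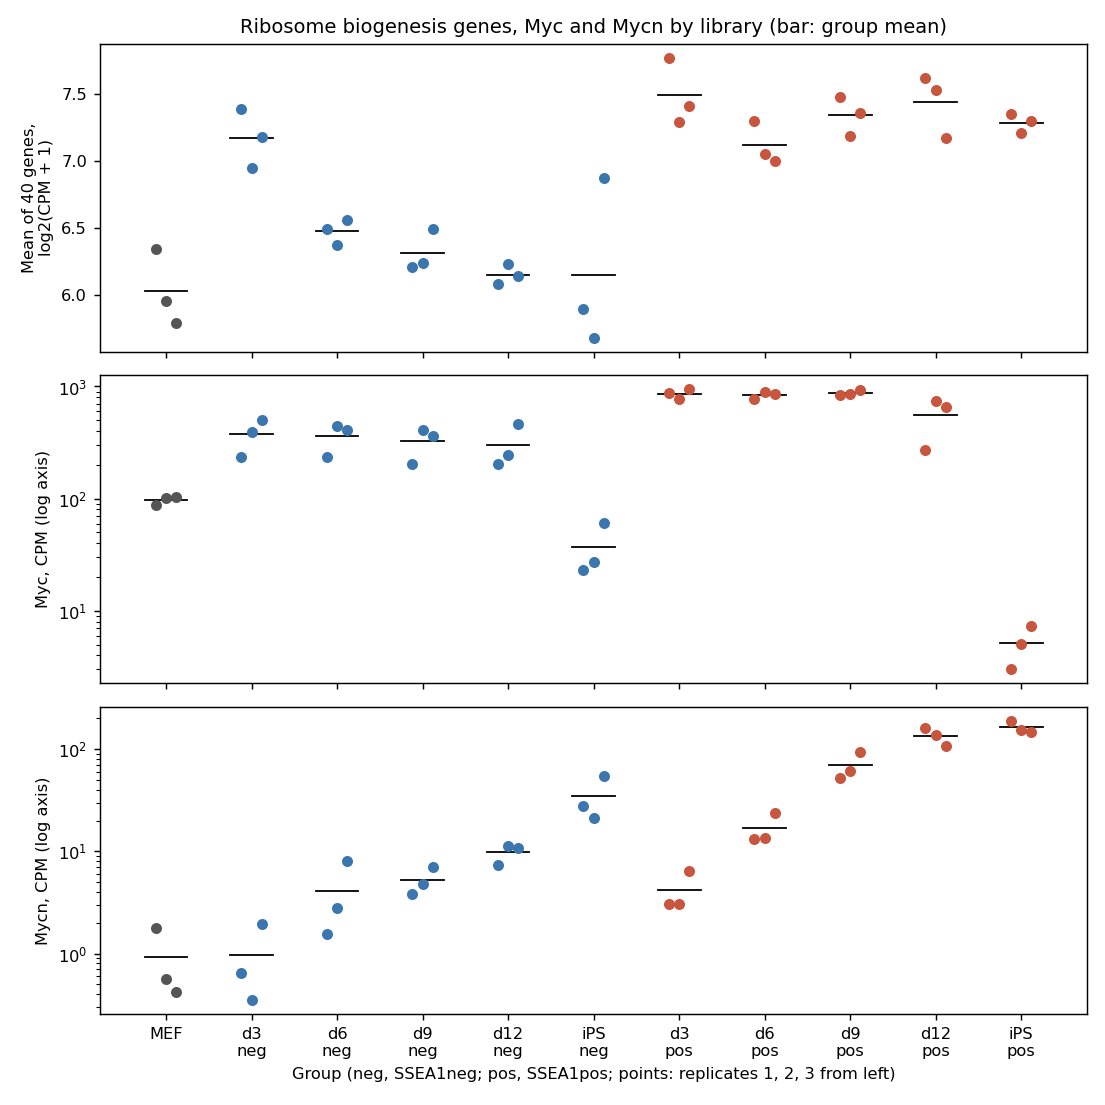
Mean log2(CPM + 1) of the 40 ribosome biogenesis genes (top), and CPM of Myc (middle, log axis) and Mycn (bottom, log axis), for each of the 33 libraries by stage and fraction. Points are replicates 1, 2 and 3 from left to right, bars are group means, grey is MEF, blue SSEA1neg and red SSEA1pos. The members' mean is 6.03 in MEFs and between 7.12 and 7.49 in the SSEA1pos groups, where Myc falls from 553 CPM at day 12 to 5.15 CPM at the iPS stage and Mycn stands at 136 and 164 CPM.

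The genes varied together. The first principal component of the 40 genes over the 33 libraries held 82.3% of their variance. The median correlation of a gene with the other 39 was lowest for Nop16 and Nop10, at 0.63 and 0.64, and highest for Nolc1, at 0.94. Nop16 is a large subunit assembly factor, Nop10 a small core protein of H/ACA snoRNPs, and Nolc1 (Nopp140) a chaperone of snoRNPs. These values share libraries and depth and are a description. By GC content the genes were close to all tested genes (median 48% against 50%), as they were by transcript length (3307.5 against 3151.5 nucleotides).

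Levels differed widely among the genes. Per kilobase of transcript, Npm1 had a mean level of 670 CPM in MEFs and 2070 CPM in day 3 SSEA1pos cells, and Ncl 105 and 395 CPM. Dkc1 had 16.5 and 85.3 CPM per kilobase in the same groups, Polr1a 9.53 and 24.8, and Wdr12 3.02 and 7.57. Npm1 (nucleophosmin) is an abundant nucleolar chaperone and has processed pseudogenes. Reads that align to several places were left out of the counts, so its level is uncertain.

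The first question was how far the genes stood above MEFs in the SSEA1pos fraction, where pluripotency markers were at 447 to 628 CPM in sum on day 9. At day 3, 39 of the 40 genes were higher than in MEFs and none lower, with a median log2 change of 1.54 (range 0.81 to 2.36). Counts of the later stages were 35 at day 6 (median 1.12), 38 at day 9 (1.28), 38 at day 12 (1.40) and 36 at the iPS stage (1.26), again with none lower. Among all 17326 tested genes 25.2, 26.2, 29.5, 34.8 and 35.7% were called higher at these 5 stages and 21.1, 21.5, 23.4, 26.4 and 28.6% lower, with medians from 0.09 to 0.26. Calls rest on edgeR's quasi-likelihood test, with an adjusted p (Benjamini-Hochberg, over all tested genes) under 0.05 and no minimum fold. At an unadjusted p under 0.05 and with DESeq2 the count of genes lower than in MEFs was likewise 0 at each of the 5 stages. The libraries of 40, 38, 40, 39 and 37 of the genes lay above all MEF libraries without overlap, against 31.7, 32.1, 36, 39.2 and 38.8% of all genes. These 5 comparisons share their MEF libraries, as do those of the SSEA1neg fraction.

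Bop1, which with Pes1 and Wdr12 forms a complex of the pre-60S particle, was called at none of these stages (log2 changes from 0.20 ± 0.37 to 0.85 ± 0.37, adjusted p 0.69 and 0.065 at those ends). The other genes missed in 1 or more stages were the small subunit factors Imp4, Tsr1, Utp20 and Wdr75 and the polymerase I factor Rrn3. Box H/ACA and box C/D genes were called at each of the 5 stages, 4 of 4 and 3 of 3, with H/ACA medians of 1.90, 1.48, 1.91, 2.11 and 1.78. Dkc1 showed the largest change of the 40 genes at every stage.

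In the SSEA1neg fraction, 35 of the 40 genes were higher than in MEFs at day 3 and none lower, with a median log2 change of 1.20 (range -0.10 to 2.26). From then on fewer were called, with 18 higher and 2 lower at day 6 (median 0.43), 13 and 1 at day 9 (0.31), 8 and 3 at day 12 (0.13), and 7 and 0 at the iPS stage (0.25). Among all tested genes 24.5, 23.2, 20.9, 22.2 and 24% were called higher and 19.6, 18.2, 17.8, 18.4 and 14.5% lower, so that the share of these genes called higher was near or under the background at days 12 and iPS (8 and 7 of 40). At day 3 and at the iPS stage, where edgeR called none lower, an unadjusted p under 0.05 and DESeq2 gave 0 as well. The members' median was at the median of all genes (0.12) at day 12.

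By role, the counts in this fraction were as follows. H/ACA genes were called higher in 4 of 4 at day 3 and in 3 of 4 at each later stage (medians 1.76, 1.25, 1.02, 0.86 and 0.87). At the iPS stage their mean log2(CPM + 1) was 5.20, 5.43 and 6.64 in replicates 1, 2 and 3, and 5.39, 4.84 and 4.70 in MEFs. Of the iPS calls, those of Dkc1 and Nop10 were lost without replicate 3. Box C/D genes went from 3 of 3 at days 3 and 6 to 2, 1 and 0. Polymerase I genes went from 3 of 3 to 1 and then 0. Of the 13 small subunit genes 10 were higher at day 3, then 3, 2, 0 and 2, with 1 lower at day 6 and 2 lower at day 12. Of the 11 large subunit genes 9 were higher at day 3, then 5, 4, 3 and 1, with 1 lower at each of days 6, 9 and 12. The genes below MEFs were Bop1 at days 6, 9 and 12 (log2 changes of -1.1 ± 0.37, -1.02 ± 0.37 and -1.11 ± 0.37, adjusted p 0.020, 0.032 and 0.020), Rrp12, an export factor of both pre-ribosomal subunits, at days 6 and 12 (-0.86 ± 0.32 and -0.93 ± 0.33, 0.036 and 0.024), and Imp4 of the SSU processome at day 12 (-0.66 ± 0.26, 0.047). These differences between roles were not tested.

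The iPS SSEA1neg result rested on 1 library and the later SSEA1neg counts on single libraries too. Without iPS SSEA1neg replicate 3 the count was 2 higher and 9 lower and the median -0.19. Leaving out MEF replicate 1, iPS SSEA1neg replicate 1 or replicate 2 gave 12, 11 and 13 higher. At day 9 the count higher was 6 without MEF replicate 2, 5 without MEF replicate 3 and 7 without SSEA1neg replicate 3, and the count lower was 2 without MEF replicate 3 and 0 without MEF replicate 1 or any 1 of the SSEA1neg libraries. At day 12 the count higher was 5, 3 and 5 without MEF replicate 2, MEF replicate 3 and SSEA1neg replicate 2, and the count lower was 0 without MEF replicate 1 or SSEA1neg replicate 1 or 2. At day 6 the count lower was 1 without MEF replicate 1 and 0 without SSEA1neg replicate 2 or 3. With a trend on GC content removed, day 12 had 4 higher and 6 lower and the median was -0.05, below 0.

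**Figure D2:**
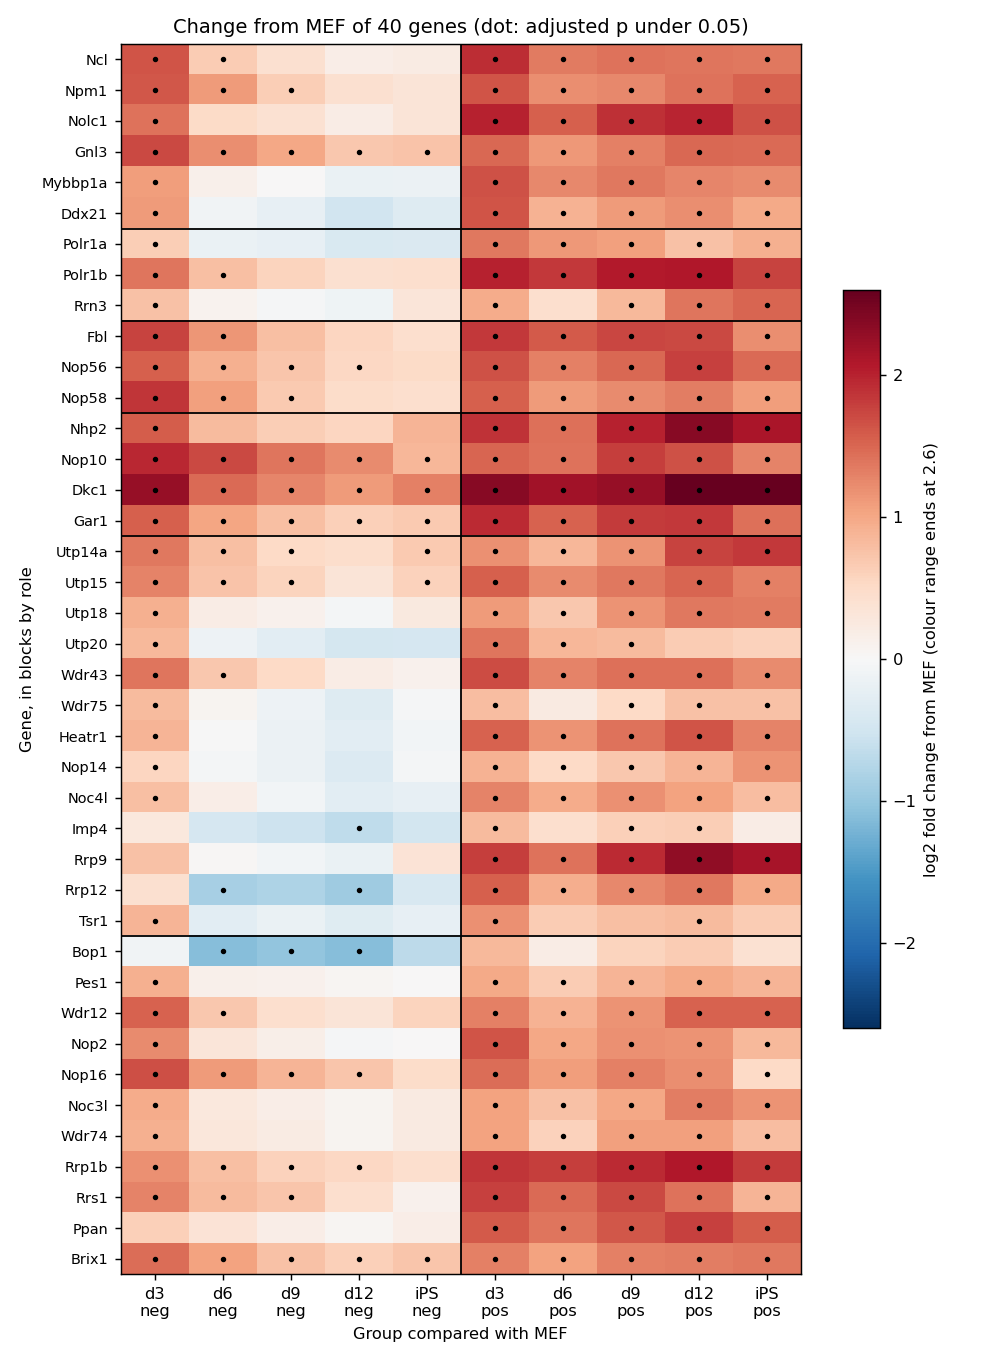
Log2 change from MEFs of the 40 genes (rows, ordered by role) in the 10 sorted groups (columns). Colour gives the change, with the scale ending at 2.6, and a dot marks an adjusted p under 0.05 in edgeR's test. Of the 40 genes, 39 carry a dot in day 3 SSEA1pos cells and 35 in day 3 SSEA1neg cells, while 11 do in day 12 SSEA1neg cells, 3 of them lower.

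The second question was how the SSEA1pos fraction differed from the SSEA1neg fraction of the same day. The number of the 40 genes higher in SSEA1pos cells was 3 at day 3, 20 at day 6, 36 at day 9, 38 at day 12 and 37 at the iPS stage, and none was lower at any stage. Median log2 differences were 0.30, 0.60, 1.00, 1.24 and 1.05. Among all tested genes 5.57, 12.7, 20.1, 26.9 and 25.4% were called higher and 6.33, 14.4, 18.7, 23.6 and 27% lower, with medians from -0.03 to 0.06. The day 3 count (3 of 40) is near that background. Of the genes lower, an unadjusted p under 0.05 and DESeq2 gave 0 at each stage, while DESeq2 called 3, 21, 36, 38 and 38 higher. The libraries of the fractions did not overlap for 11 genes higher and 1 lower at day 3 (15.1 and 16.5% of all genes), and for 29, 39, 39 and 32 genes higher at the later stages (20.1, 28.2, 33.1 and 27.4%).

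At day 3 the 3 genes were Rrp12, Polr1a and Rrp1b, the last a large subunit factor. Rrp12 differed by 1.14 ± 0.32 (adjusted p 0.021), Polr1a by 0.75 ± 0.22 (0.028) and Rrp1b by 0.67 ± 0.19 (0.024). At day 6 most small subunit genes were called, 10 of 13, while none of the 7 snoRNP genes was. From day 9 on all 13 small subunit and all 3 polymerase I genes were higher in SSEA1pos cells, and 10 of 11 large subunit genes, the exception at days 9, 12 and iPS being Nop16. The others not called were Gnl3, Nop58 and Nop10 at day 9, Nop10 at day 12, and Fbl (fibrillarin, the methyltransferase of C/D snoRNPs) and Nop10 at the iPS stage.

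The largest differences were in Rrp9, a U3 snoRNP protein of the SSU processome, and in Rrp12. Rrp9 was at 17.1, 23.2 and 37.0 CPM in day 12 SSEA1neg libraries and at 160, 161 and 107 CPM in SSEA1pos libraries. Rrp12 was at 21.4, 20.6 and 23.4 CPM and at 129, 113 and 81.5 CPM. Neither gene overlapped between the fractions. The differences were 2.47 ± 0.48 for Rrp9 (adjusted p 0.00015) and 2.3 ± 0.34 for Rrp12 (6.5e-06).

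Single libraries moved some of these counts. The day 3 count was 0 without SSEA1neg replicate 2 or 3 or SSEA1pos replicate 1 or 3, and the day 6 count was 9 without SSEA1neg replicate 2, 12 without SSEA1neg replicate 3 and 8 without SSEA1pos replicate 1. With no filter on low counts, days 3 and 6 gave 1 and 10, and with a model of the compared groups alone day 3 gave 5 and the iPS stage 14. Without iPS SSEA1neg replicate 3 the iPS stage gave 39 higher and a median of 1.45.

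**Figure D3:**
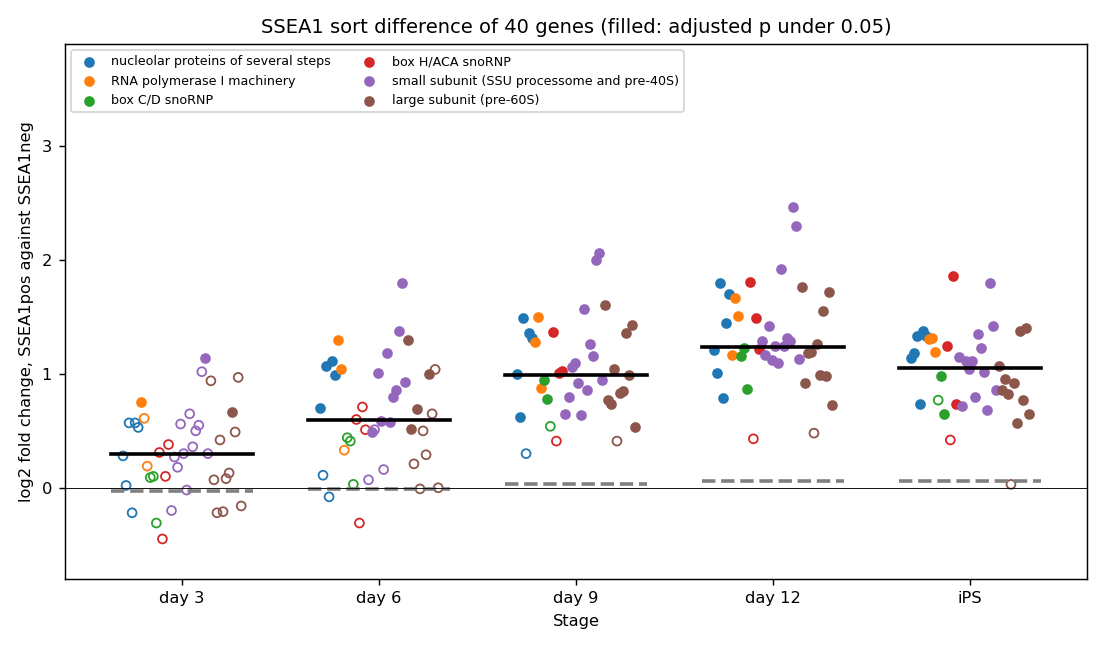
Log2 difference between SSEA1pos and SSEA1neg cells of each of the 40 genes by stage, coloured by role. Filled points are called (adjusted p under 0.05), the black line is the median of the 40 genes and the grey dashed line that of all tested genes. The median of the 40 genes goes from 0.30 at day 3 to 1.24 at day 12 and that of all genes stays between -0.03 and 0.06.

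The sort difference at day 12 was compared with that at day 3 by a term of its own in the same model. It was larger at day 12 for 20 of the 40 genes and smaller for none, with a median of 0.94 and all 40 genes positive, against 8.65% of all genes called higher and 9.06% lower (median 0.11). At an unadjusted p under 0.05 it was larger for 33 genes and smaller for 0, and DESeq2 gave 28 and 0. The 20 genes included 7 of 13 small subunit, 5 of 11 large subunit, 3 of 6 nucleolar, 2 of 3 box C/D, 2 of 4 H/ACA and 1 of 3 polymerase I genes. The largest were Nhp2 (1.50 ± 0.53, adjusted p 0.048), an H/ACA core protein, Utp14a (1.49 ± 0.27, 0.00095), a small subunit factor, and Wdr12 (1.40 ± 0.35, 0.0088). Utp14a was at 83.0, 59.9 and 74.0 CPM in day 3 SSEA1neg and 71.1, 58.1 and 59.3 in day 3 SSEA1pos libraries, which overlapped, and at 35.8, 44.8 and 34.1 against 103, 104 and 73.8 CPM at day 12, which did not. The count of 20 was 6 without day 3 SSEA1neg replicate 1, 8 without day 12 SSEA1pos replicate 1, 9 and 11 without day 3 SSEA1pos replicates 2 and 3, 11 without day 12 SSEA1pos replicate 2, 12 without day 12 SSEA1neg replicate 3, and 10 with no filter on low counts.

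Between the iPS stage and day 12 the sort difference was called larger or smaller for 0 of the 40 genes by edgeR (smallest adjusted p 0.40), for 0 at an unadjusted p under 0.05 and for 0 by DESeq2, beside 0.439 and 1.49% of all genes. The median was -0.30 (all genes -0.16), and 0.23 with 1 gene called larger without iPS SSEA1neg replicate 3.

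Within the SSEA1pos fraction few of the 40 genes were called from one stage to the next. From day 3 to day 6 edgeR called 0 of 40 in either direction, with a median of -0.39 and all 40 values negative (range -0.73 to -0.06). At an unadjusted p under 0.05 this gave 5 genes lower and 0 higher, DESeq2 called 0, and the libraries of 17 genes lay lower at day 6 without overlap, against 13.2% of all genes. Of all tested genes 3.45% were called higher and 1.81% lower in that step. From day 6 to day 9 edgeR called 0 in either direction, as did DESeq2 and the unadjusted p (median 0.21, smallest adjusted p 0.56, background 1.01 and 0.121%). In that step the libraries of 11 genes lay higher at day 9 without overlap and those of 0 lower, against 9.66 and 8.31% of all genes. From day 9 to day 12 Utp14a rose (0.59 ± 0.19, adjusted p 0.046, background 6.37 and 5.47%), and from day 12 to the iPS stage Nop16 fell by 0.69 ± 0.21 on the log2 scale (0.027, background 5.17 and 7.87%). Utp14a was no longer called when any 1 of the day 9 libraries or day 12 replicate 1 or 2 was left out, and Nop16 when day 12 replicate 1 or 2 or iPS replicate 2 or 3 was. The count lower in the last step was 2 with a model of the compared groups alone.

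Npm1 and Ncl led the nucleolar proteins by level. Npm1 was at 1327, 932 and 1024 CPM in MEFs, 3710, 2688 and 3612 in day 3 SSEA1neg, 1995, 2258 and 2794 in day 6 SSEA1neg, 1306, 1727 and 1315 in day 12 SSEA1neg and 934, 1279 and 1947 in iPS SSEA1neg libraries. In SSEA1pos libraries it was at 3960, 3036 and 3147 on day 3, 2819, 2450 and 2345 on day 6, 3241, 3117 and 2428 on day 12 and 2873, 3237 and 3339 CPM at the iPS stage. The fractions overlapped at days 3 and 6 and did not at day 12 and the iPS stage. The sort difference of Npm1 was 0.02 ± 0.22 at day 3 (adjusted p 0.99) and 1.01 ± 0.22 at day 12 (0.00051), and its difference from MEFs was 1.61 ± 0.22 in day 3 SSEA1neg (4e-06) and 0.41 ± 0.22 in day 12 SSEA1neg cells (0.14).

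Ncl (nucleolin) binds precursor rRNA and rDNA chromatin. It was at 1171, 733 and 684 CPM in MEFs, 3411, 2010 and 2587 in day 3 SSEA1neg, 984, 1085 and 874 in day 12 SSEA1neg, 4209, 2648 and 2853 in day 3 SSEA1pos and 2671, 2270 and 1885 CPM in day 12 SSEA1pos libraries. Day 3 libraries of both fractions lay above MEFs, and day 12 SSEA1neg libraries lay among them. Ncl was higher in SSEA1pos than in SSEA1neg cells by 0.70 ± 0.25 at day 6 (adjusted p 0.040) and by 1.21 ± 0.25 at day 12 (0.00035). The other nucleolar proteins, Nolc1, Gnl3, Mybbp1a and Ddx21, were higher than in MEFs in SSEA1pos cells of all 5 stages.

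In the polymerase I machinery, Polr1a is the largest subunit and Rrn3 (TIF-IA) the factor that makes the polymerase competent to start. Polr1a was at 117, 79.6 and 67.2 CPM in MEFs, 162, 125 and 122 in day 3 SSEA1neg, 68.2, 59.5 and 73.0 in day 12 SSEA1neg, 254, 207 and 224 in day 3 SSEA1pos and 179, 140 and 131 CPM in day 12 SSEA1pos libraries. SSEA1pos libraries lay above SSEA1neg libraries on both days. Its sort difference was called at all 5 stages and ranged from 0.75 ± 0.22 at day 3 to 1.31 ± 0.23 at the iPS stage (adjusted p 0.028 and 3.7e-05).

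Rrn3 was at 98.0, 98.8 and 73.5 CPM in MEFs, 239, 139 and 147 in day 3 SSEA1pos, 156, 108 and 100 in day 6 SSEA1pos, 317, 226 and 173 in day 12 SSEA1pos and 295, 243 and 230 CPM in iPS SSEA1pos libraries, against 86.6, 91.2 and 73.1 in day 12 SSEA1neg libraries. Replicate 1 was the highest SSEA1pos library at each of these stages, and day 12 SSEA1pos and SSEA1neg libraries did not overlap. Its difference from MEFs was 0.43 ± 0.26 in day 6 SSEA1pos cells (adjusted p 0.19) and 1.51 ± 0.27 at the iPS stage (2.8e-05), and its sort difference was larger at day 12 than at day 3 by 1.32 ± 0.37 (0.017).

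Nop56 and Nop58 are the paired scaffold proteins of box C/D snoRNPs. Nop58 was at 154, 101 and 89.9 CPM in MEFs, 524, 305 and 424 in day 3 SSEA1neg, 155, 180 and 142 in day 12 SSEA1neg, 424, 286 and 301 in day 3 SSEA1pos and 328, 289 and 258 CPM in day 12 SSEA1pos libraries. The day 3 fractions overlapped, with the highest library on the SSEA1neg side, and the day 12 fractions did not. The sort difference of Nop58 was -0.31 ± 0.23 at day 3 (adjusted p 0.41) and 0.87 ± 0.23 at day 12 (0.0027). Nop56 was at 125, 103 and 76.1 CPM in MEFs, 138, 171 and 134 in day 12 SSEA1neg and 337, 394 and 310 CPM in day 12 SSEA1pos libraries, so that day 12 SSEA1neg libraries lay above all MEF libraries. It was higher than in MEFs in day 12 SSEA1neg (0.54 ± 0.21, 0.038) and SSEA1pos cells (1.77 ± 0.21, 1.2e-07).

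Dkc1 (dyskerin), the pseudouridine synthase of H/ACA snoRNPs and also a part of telomerase, changed most from MEFs in SSEA1pos cells. It was at 64.6, 40 and 34.4 CPM in MEFs, and in SSEA1pos libraries at 282, 209 and 227 on day 3, 221, 197 and 211 on day 6, 234, 208 and 230 on day 9, 329, 289 and 223 on day 12 and 392, 470 and 406 CPM at the iPS stage. In SSEA1neg libraries it was at 295, 176 and 197 on day 3, 143, 96.0 and 146 on day 6, 107, 85.4 and 141 on day 9, 99.4, 108 and 92.0 on day 12 and 55.8, 73.1 and 219 CPM at the iPS stage. Every sorted library but iPS SSEA1neg replicate 1 lay above all MEF libraries, and iPS SSEA1pos libraries were the highest. Its differences from MEFs ran from 2.18 ± 0.34 (day 6, adjusted p 1.2e-05) to 3.19 ± 0.36 (iPS, 3.3e-08) in SSEA1pos cells and from 1.1 ± 0.33 (day 12, 0.011) to 2.26 ± 0.35 (day 3, 1.2e-05) in SSEA1neg cells. The iPS SSEA1neg value of 1.32 ± 0.34 (0.0033) was 0.48 and not called without replicate 3 of that group.

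Nhp2, another core H/ACA protein, was at 47.8, 31.9 and 26.4 CPM in MEFs, 35.9, 58.1 and 63.1 in day 12 SSEA1neg and 195, 214 and 141 CPM in day 12 SSEA1pos libraries. SSEA1neg libraries overlapped with MEFs and SSEA1pos libraries lay above both. It was higher than in MEFs by 2.37 ± 0.39 in day 12 SSEA1pos cells (adjusted p 1.2e-05). In day 12 SSEA1neg cells the value was 0.56 ± 0.37 (0.24). Nop10, by contrast, was called higher than in MEFs in SSEA1neg cells of all 5 stages, from 1.96 ± 0.26 at day 3 (2.8e-06) to 0.87 ± 0.26 at the iPS stage (0.010), and its sort difference was called at none. The iPS value was 0.62 and not called without SSEA1neg replicate 3.

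Of the small subunit factors, Wdr43 belongs to the SSU processome and Utp20 is one of its large late proteins. Wdr43 was at 109, 81.8 and 78.1 CPM in MEFs, 315, 183 and 212 in day 3 SSEA1neg, 109, 105 and 93.9 in day 12 SSEA1neg, 355, 244 and 277 in day 3 SSEA1pos and 273, 245 and 211 CPM in day 12 SSEA1pos libraries. Day 12 SSEA1neg libraries overlapped with MEFs and the day 12 fractions did not overlap. Its sort difference was 0.59 ± 0.21 at day 6 (adjusted p 0.037) and 1.25 ± 0.21 at day 12 (3.9e-05), and it was larger at day 12 than at day 3 by 0.94 ± 0.30 (0.029).

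Utp20 was at 150, 111 and 75.8 CPM in MEFs, 305, 145 and 155 in day 3 SSEA1neg, 101, 83.2 and 61.8 in day 12 SSEA1neg, 394, 235 and 259 in day 3 SSEA1pos and 230, 168 and 138 CPM in day 12 SSEA1pos libraries. MEF replicate 1 lay above the lowest day 12 SSEA1pos library, and the 0.67 ± 0.34 between these groups was not called (adjusted p 0.092). Between the fractions Utp20 was higher in SSEA1pos cells by 1.12 ± 0.35 at day 12 (0.0089). Its calls against MEFs at days 6 and 9 in SSEA1pos and day 3 in SSEA1neg cells, with adjusted p of 0.041, 0.047 and 0.049, were each lost with DESeq2's scaling, with DESeq2, with no filter on low counts and with the GC trend removed.

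Among large subunit factors, Nop2 methylates the rRNA of that subunit. Pes1 was at 125, 95.6 and 85.4 CPM in MEFs, 214, 173 and 192 in day 3 SSEA1neg, 104, 111 and 102 in day 12 SSEA1neg, 241, 177 and 187 in day 3 SSEA1pos and 223, 213 and 165 CPM in day 12 SSEA1pos libraries. Day 12 SSEA1neg libraries lay within the MEF range. Pes1 was higher in SSEA1pos than in SSEA1neg cells by 0.92 ± 0.19 at day 12 (adjusted p 0.00039), and by 0.07 ± 0.19 at day 3, which was not called (0.89). Nop2 was at 84.0, 76.1 and 67.8 CPM in MEFs, 70.0, 77.9 and 75.9 in day 12 SSEA1neg and 184, 188 and 138 CPM in day 12 SSEA1pos libraries. It differed by 1.19 ± 0.26 between the day 12 fractions (0.00063).

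Bop1 and Nop16 were the large subunit genes most often outside the calls of the others. Bop1 was at 98.7, 77.8 and 71.4 CPM in MEFs, 32.5, 36.2 and 46.2 in day 12 SSEA1neg and 147, 144 and 99.1 CPM in day 12 SSEA1pos libraries. All SSEA1neg libraries of that day lay below, and all SSEA1pos libraries above, the MEF libraries. Nop16 was at 43.5, 33.9 and 29.2 CPM in MEFs, 53.5, 63.5 and 59.5 in day 12 SSEA1neg, 86.1, 94.6 and 64.8 in day 12 SSEA1pos and 59.1, 43.5 and 49.7 CPM in iPS SSEA1pos libraries. It was higher than in MEFs in both fractions of day 12 (0.72 ± 0.21 and 1.20 ± 0.21, adjusted p 0.0075 and 2.7e-05).

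The level of Myc was set beside these genes. Reads of Myc's own copy and of an introduced copy, if the cells carried one, cannot be told apart. Myc was at 87.2, 102 and 104 CPM in MEFs, and in SSEA1pos libraries at 878, 776 and 943 on day 3, 779, 889 and 863 on day 6, 844, 851 and 932 on day 9, 271, 735 and 651 on day 12 and 3.03, 5.07 and 7.34 CPM at the iPS stage. In SSEA1neg libraries it was at 236, 394 and 501 on day 3, 235, 447 and 409 on day 6, 204, 411 and 364 on day 9, 202, 246 and 459 on day 12 and 22.9, 27.1 and 60.2 CPM at the iPS stage. Both fractions lay above MEFs from day 3 to day 12 and below them at the iPS stage.

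Myc differed between the fractions by 1.20 ± 0.39 at day 3 (adjusted p 0.044), 1.21 ± 0.39 at day 6 (0.022) and 1.42 ± 0.39 at day 9 (0.0057). At day 12 the difference of 0.87 ± 0.39 was not called (0.062) and the libraries overlapped, and at the iPS stage Myc was lower in SSEA1pos cells (-2.83 ± 0.42, 5.9e-06). The sort difference of Myc at day 12 against day 3 was -0.33 ± 0.54 (0.74), beside the 20 ribosome biogenesis genes whose sort difference was larger at day 12. In day 12 SSEA1neg cells Myc was higher than in MEFs by 1.63 ± 0.39 (0.0020) with 8 of the 40 genes higher and 3 lower, both under the shares of all genes (22.2% and 18.4%). In iPS SSEA1pos cells Myc was below MEFs (-4.24 ± 0.45, 1.1e-08) and below day 12 SSEA1pos cells (-6.74 ± 0.50, 4.9e-09), with 36 of the 40 genes above MEFs (35.7% of all genes) and 1, Nop16, below day 12.

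Over the 11 group means, the mean level of the 40 genes and the log2 level of Myc had a Pearson correlation of 0.27 and a Spearman correlation of 0.66. Over the 10 groups other than iPS SSEA1pos they were 0.78 and 0.90. For single genes over these 10 groups Pearson's value ran from 0.50 for Rrn3 to 0.91 for Rrs1, a large subunit factor. Within day 12 SSEA1pos cells, the library with the least Myc (replicate 1, 271 CPM) had the highest mean of the 40 genes (7.62). Its endoderm markers summed to 48.7 CPM, against 2.81 and 2.99 CPM in replicates 2 and 3, so these libraries may differ in cell content, which was not tested. Replicate 1 also had the highest mean of its group in SSEA1pos cells of days 3, 6 and 9 and the iPS stage (7.77, 7.30, 7.48 and 7.35) and in MEFs (6.34). These are descriptions over group means that share a sequencing design, and iPS SSEA1pos was set aside after its Myc level had been seen.

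**Figure D4:**
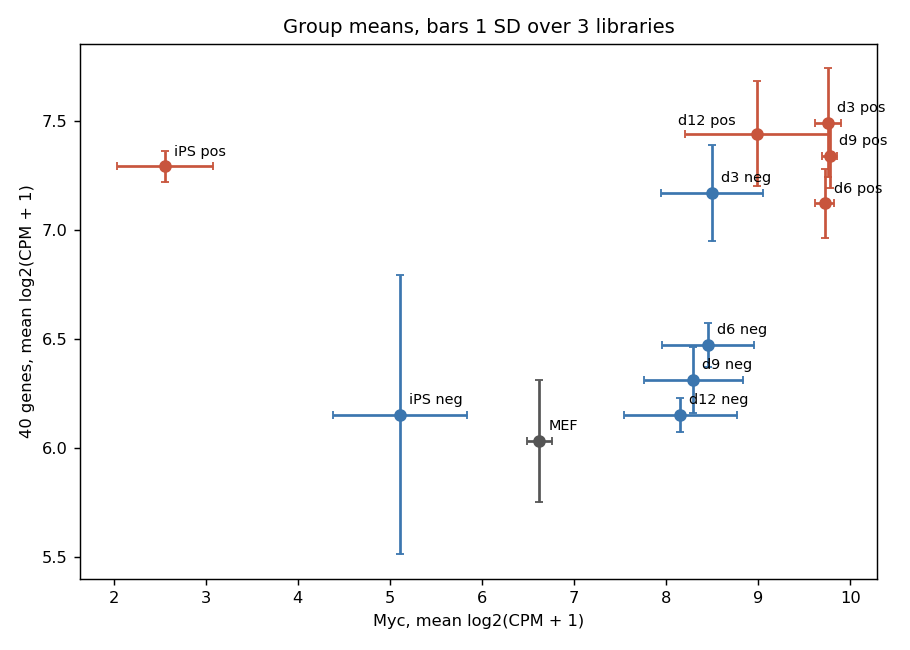
Mean log2(CPM + 1) of the 40 genes (vertical axis) against Myc in log2(CPM + 1) (horizontal axis) for the 11 groups, as group means with bars of 1 SD over 3 libraries. The iPS SSEA1pos group, with Myc at 5.15 CPM, has a members' mean of 7.29, within the range of the other SSEA1pos groups (7.12 to 7.49), and the day 12 SSEA1neg group, with Myc at 302 CPM, has a mean of 6.15.

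Mycn, a paralog that binds the same E-box, was at a mean of 0.926 CPM in MEFs. In SSEA1pos cells its mean was 4.19, 16.8, 69.4 and 136 CPM on days 3, 6, 9 and 12 and 164 CPM at the iPS stage (190, 155 and 148), and in SSEA1neg cells 0.98, 4.12, 5.20, 9.83 and 34.8 CPM. It was higher than in MEFs by 7.03 ± 0.68 in day 12 (adjusted p 4.1e-09) and 7.30 ± 0.68 in iPS SSEA1pos cells (1.6e-09). The step between these stages was 0.27 and not called (0.78). Mycl, the remaining paralog, had means of 16.2 CPM in MEFs and 16.6 to 46.7 CPM in the SSEA1pos groups.

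Another 79 ribosome biogenesis genes, not on the list of 40, were counted in the same way. In SSEA1pos against SSEA1neg cells 7, 25, 52, 64 and 52 of the 79 were higher and 2, 1, 1, 0 and 0 lower at days 3, 6, 9, 12 and the iPS stage, with medians of 0.17, 0.40, 0.72, 0.92 and 0.67. Of all tested genes 5.57, 12.7, 20.1, 26.9 and 25.4% were called higher and 6.33, 14.4, 18.7, 23.6 and 27% lower. These shares also stand beside the sort counts of the lists below. Against MEFs 71 of the 79 were higher in day 3 SSEA1pos and 60 in day 3 SSEA1neg cells, and 64 and 8 at day 12, with 4 lower in day 12 SSEA1neg cells. The shares of all genes higher were 25.2 and 24.5% at day 3 and 34.8 and 22.2% at day 12, and 18.4% were lower in day 12 SSEA1neg cells. The sort difference was larger at day 12 than at day 3 for 27 of the 79 and smaller for none (8.65 and 9.06% of all genes). Urb1, a pre-60S factor, was at 90.3 CPM in day 12 SSEA1pos and 20.0 in SSEA1neg cells (2.18 ± 0.27, adjusted p 1.2e-06). Nat10, which acetylates 18S rRNA, was at 171 and 52.2 CPM (1.71 ± 0.23, 2.2e-06).

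Genes of RNA polymerases I and III outside the list were counted in the same way. Of 9 other polymerase I genes, 1, 3, 4, 6 and 4 were higher in SSEA1pos than in SSEA1neg cells over the 5 stages. Ubtf, the architectural factor of rDNA chromatin, was at 318 against 142 CPM at day 12 (1.16 ± 0.23, adjusted p 0.00019). Of 15 RNA polymerase III genes, whose products make 5S rRNA and tRNAs, 4, 7, 11, 9 and 9 were higher and 1, 1, 0, 1 and 1 lower. Polr3g, the variant subunit of pluripotent cells, was at 54.7 CPM in day 3 SSEA1pos cells against 8 in MEFs (2.76 ± 0.31, 1.5e-07) and at 83.6 CPM at the iPS stage (3.37 ± 0.32, 2.2e-09).

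Cytosolic ribosomal proteins are the parts that biogenesis factors assemble onto rRNA. Of 76 of their genes tested, 1 was higher and 7 lower in SSEA1pos than in SSEA1neg cells at day 3, 1 and 14 at day 6, 2 and 1 at day 9, 7 and 0 at day 12 and 22 and 0 at the iPS stage, with medians of -0.31, -0.30, -0.02, 0.17 and 0.49. Rpl39 was at 182 CPM in day 6 SSEA1pos and 540 CPM in SSEA1neg cells (-1.57 ± 0.30, adjusted p 0.00054), and Rpl31 at 411 and 791 CPM (-0.94 ± 0.23, 0.0037). Against MEFs, 46 were higher in SSEA1neg cells at day 3, 47 at day 6, 31 at day 9, 20 at day 12 and 5 at the iPS stage, and 14, 20, 27, 38 and 29 in SSEA1pos cells. Of all tested genes 24.5, 23.2, 20.9, 22.2 and 24% were called higher in SSEA1neg and 25.2, 26.2, 29.5, 34.8 and 35.7% in SSEA1pos cells. Library values went apart within the SSEA1neg fraction. The mean log2(CPM + 1) of the 76 genes was 9.04, 8.72 and 8.84 in MEFs, 8.92, 9.64 and 9.89 in day 3 SSEA1neg, 8.93, 9.82 and 9.82 in day 6 SSEA1neg, and 8.77, 9.72 and 9.38 in day 9 SSEA1neg and 8.77, 9.18 and 9.50 in day 12 SSEA1neg libraries, so that replicate 1 lay within the MEF range and replicates 2 and 3 above it. In SSEA1pos libraries it was 9.39, 9.30 and 9.22 at day 3 and 9.47, 9.37 and 9.25 at day 6, above SSEA1neg in replicate 1 and below it in replicates 2 and 3. Without SSEA1neg replicate 1 the sort gave 17 lower at day 3 and 23 at day 6, without SSEA1neg replicate 3 it gave 2 at each, and without SSEA1neg replicate 2 it gave 4 and 5. It gave 1 lower at day 3 without SSEA1pos replicate 3, and 5 lower at day 6 without SSEA1pos replicate 2 or 3. Of the counts higher than MEFs, that of day 3 SSEA1neg was 30 without its replicate 3 and those of days 3 and 6 lay between 31 and 55 without any other library. That of day 9 was 16 without MEF replicate 2, 20 without MEF replicate 3 and 18 without SSEA1neg replicate 2, and that of day 12 was 9 and 10 without these MEF libraries and 11 without SSEA1neg replicate 2 or 3. Without iPS SSEA1neg replicate 3, 4 of the 76 genes were higher and 12 lower than in MEFs at the iPS stage, with a median of -0.14. The iPS sort count was then 44 higher with a median of 0.76, and it was 9 without SSEA1neg replicate 1 or 2. In SSEA1pos cells the counts higher than MEFs over the 5 stages were 2, 4, 6, 16 and 18 without MEF replicate 2. They were 4, 7, 11, 21 and 20 without MEF replicate 3, and 12, 20, 26, 32 and 29 without MEF replicate 1. With the replicate number as a block, the sort gave 10 lower ribosomal protein genes at day 3, and 4 and 12 higher at days 9 and 12. Many ribosomal protein genes have processed pseudogenes, and reads with several alignments were not counted, so these levels are uncertain.

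**Figure D5:**
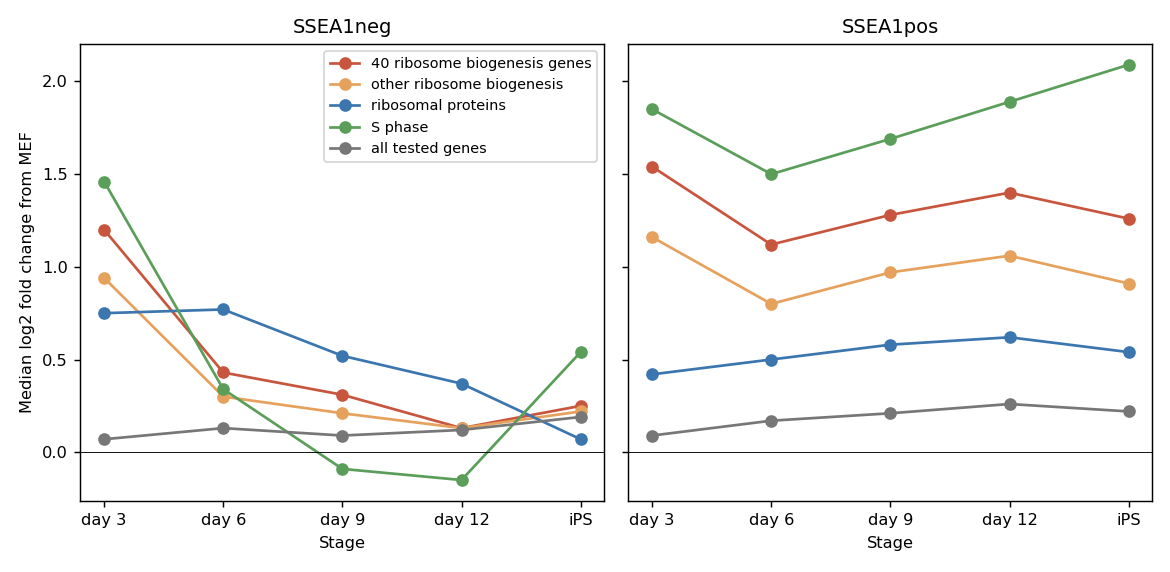
Median log2 change from MEFs of the 40 genes, the 79 other ribosome biogenesis genes, 76 ribosomal protein genes, 20 S phase genes and all tested genes, by stage, in SSEA1neg (left) and SSEA1pos cells (right). In SSEA1neg cells the median of the 40 genes goes from 1.20 at day 3 to 0.13 at day 12 and that of ribosomal protein genes from 0.75 to 0.37 (SSEA1neg replicate 1 of days 3, 6, 9 and 12 lay within the MEF range for the latter), while in SSEA1pos cells the 40 genes stay between 1.12 and 1.54.

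Genes of DNA replication (S phase) were set beside the 40 genes. The mean log2(CPM + 1) of 20 such genes was 6.06, 4.79 and 4.93 in MEFs, 6.82, 6.56 and 6.94 in day 3 SSEA1neg, 5.07, 5.31 and 5.45 in day 12 SSEA1neg and 7.48, 7.17 and 6.86 in day 12 SSEA1pos libraries. MEF replicate 1 had the highest level of its group in S phase genes and in the 40 genes (6.34). In SSEA1pos against SSEA1neg cells 1, 11, 20, 19 and 17 of the 20 were higher over the 5 stages (medians 0.33, 1.00, 1.61, 1.82 and 1.47), and the sort difference was larger at day 12 than at day 3 for 13 (8.65% of all genes). Mcm2, a subunit of the replicative helicase, was at 392 CPM in day 12 SSEA1pos and 64.1 in SSEA1neg cells (2.61 ± 0.39, adjusted p 8.7e-06). The part of cell division in the levels of the 40 genes was not tested.

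Of 16 other genes known as Myc targets, 1, 3, 11, 13 and 11 were higher in SSEA1pos than in SSEA1neg cells at the 5 stages. Cad, of pyrimidine synthesis, was at 462 against 90.6 CPM at day 12 (2.35 ± 0.35, adjusted p 7.8e-06), and Odc1, of polyamine synthesis, at 716 against 189 CPM (1.92 ± 0.36, 0.00011). Against MEFs 1 of the 16 was higher and 2 were lower in day 12 SSEA1neg cells, and 11 were higher and 0 lower at the iPS stage in SSEA1pos cells, where Myc was at 5.15 CPM. Of all tested genes 22.2% were called higher and 18.4% lower in the first of these comparisons, and 35.7 and 28.6% in the second. Ldha, of glycolysis, was at 607 CPM in day 12 SSEA1neg cells and 2208 CPM in MEFs (-1.86 ± 0.32, 6.5e-05).

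Reads were counted without strand, according to the names of the deposited files. Of the 40 genes 17 share exonic bases with a gene of the opposite strand in the annotation used for names (12 of them with a protein-coding gene), among them Dkc1, Nhp2, Nop56, Polr1a, Wdr43, Pes1, Bop1, Rrp9, Utp14a and Wdr12. The count files set reads that fit several genes aside as ambiguous, 2.41 to 3.15% of uniquely aligned reads, so counts of these genes can lack reads of the shared bases.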

How the data were processed

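RNA of 33 libraries was isolated with a micro kit and made into poly-A libraries that keep strand, per the labels' protocols. The authors deposited raw counts of reads per Ensembl gene, 1 file a library. Roles of the tools in the submitters' processing notes (STAR 2.3.0, Picard 1.100 and HTSeq 0.6.0, with build mm9) are not stated there, nor is the gene annotation. Symbols came from GENCODE M21 (32860 of 37583 IDs had one), which belongs to another build and gave no coordinates. Promoter windows are RefSeq's on GRCm38.p6. Summary lines of the count files were left out of library totals.

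Libraries were grouped and numbered by their labels. All 33 entered 1 edgeR 4.0.16 model in R 4.3.3 (TMM, filterByExpr, robust glmQLFit, glmQLFTest) with 11 group means, 22 residual degrees of freedom and Benjamini-Hochberg adjustment over 17326 genes at 0.05. Approximate standard errors were computed from the log2 change and F. Against MEFs the median of all genes was up to 0.26 after TMM, and changes are to be read relative to it. Code was tested on simulated counts, and the rule for passing was revised after a first result had failed it. Alternatives were DESeq2 1.42.0, its scaling (RLE), no low-count filter, the compared groups alone, a GC trend removed, a replicate block, a 2-fold minimum and each library left out. The members, lists and tests were chosen with earlier results of these data known. Genes to be named were the 3 with the largest called changes in each direction of a comparison and the 2 most abundant of each role. Not all of these changes are given, those of Heatr1 and Polr1b among them, and some other genes are named too. Library values of Rrp12, Rrp9, Bop1, Utp14a and Nop16 were added after they had been seen.

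The labels do not say what a replicate number shares. As a check of pairing, deviations from group means were correlated between libraries of equal number. Every pair passed 0.1 for the sort at days 3 to 12, with values of 0.35 to 0.47 at day 3, 0.30 to 0.56 at day 6, and 0.18 to 0.31 and 0.18 to 0.24 at days 9 and 12. The same held for SSEA1pos cells of days 3, 6 and 12 against MEFs (0.11 to 0.23) and for the SSEA1pos steps up to day 12 (0.10 to 0.63). Numbers were judged to pair libraries in these comparisons and not in others. The tests behind the reported calls did not use this pairing, and the replicate block was an alternative only. With it, the sort gave 3, 22, 37 and 38 ribosome biogenesis genes of the list higher at days 3, 6, 9 and 12. Without it the counts were 3, 20, 36 and 38. The day 12 against day 3 sort difference was larger for 25 with the block and for 20 without it. With totals of 8.93 to 41.69 M reads, replicate spread rather than counting error sets the precision.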

Additional observations from a re-analysis of the deposited data

Results flagged for a closer look

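A test of the difference between days called the sort difference larger at day 12 than at day 3 for 20 of the 40 ribosome biogenesis genes, beside 8.65% of all genes called higher and 9.06% lower. The count was 6 without day 3 SSEA1neg replicate 1. Of the genes with the largest such values, Nhp2 had 1.50 ± 0.53 (edgeR, adjusted p 0.048), Utp14a 1.49 ± 0.27 (0.00095) and Wdr12 1.40 ± 0.35 (0.0088) on the log2 scale. The sort difference of Utp14a itself was -0.20 ± 0.19 at day 3 and 1.29 ± 0.20 at day 12, that of Wdr12 -0.22 ± 0.25 and 1.18 ± 0.25, and that of Nhp2 0.31 ± 0.37 and 1.81 ± 0.38. For S phase genes, 13 of 20 had a larger sort difference at day 12 in the same test, and for Myc the value was -0.33 ± 0.54 (0.74).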

How the results depend on the processing

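Counts of the 40 genes are given. Of the medians of the 40 genes in 21 comparisons, 4 changed sign under some alternative: day 12 SSEA1neg against MEFs (-0.05 with a GC trend removed, -0.01 without MEF replicate 3), SSEA1pos day 12 against day 9 (-0.01 without day 12 replicate 1) and both iPS values named below. With no filter on low counts, the sort count was 1 at day 3 and 10 at day 6, the SSEA1neg counts lower than MEFs were 1, 0 and 0 at days 6, 9 and 12, the step to day 12 gave 0 and the day 12 against day 3 sort difference 10. With the compared groups alone, the sort count was 5 at day 3 and 14 at the iPS stage, day 9 SSEA1neg had 2 lower and iPS SSEA1neg 3 higher than MEFs, and the steps to day 12 and the iPS stage gave 0 higher and 2 lower. With a GC trend removed, SSEA1neg cells had 1 lower at day 6, 8 higher at day 9, 4 higher and 6 lower at day 12, and 3 higher and 2 lower at the iPS stage. Day 9 SSEA1neg had 2 lower with RLE scaling, 2 with DESeq2 and 3 under the replicate block, which changed no other call count by over 1.5 times. At a minimum of 2-fold, the sort counts were 1, 9, 20 and 22 at days 3, 6, 9 and the iPS stage, SSEA1neg cells had 23, 9, 3, 2 and 1 higher over the 5 stages with 1 lower at day 6 and 1 at day 12, both last steps gave 0 and the day 12 against day 3 sort difference 13. Leaving out 1 library gave sort counts of 0 to 4 at day 3 and 8 to 17 at day 6, an iPS sort median of 0.84 to 1.45, SSEA1neg counts of 0 to 2 lower at day 6, 5 to 16 higher and 0 to 2 lower at day 9, 3 to 9 higher and 0 to 4 lower at day 12, and 2 to 13 higher and 0 to 9 lower at the iPS stage with a median of -0.19 to 0.42. It gave 0 to 1 for each of the last 2 steps, 6 to 24 for the day 12 against day 3 sort difference, and 0 to 1 higher with a median of -0.42 to 0.23 for the iPS against day 12 one. The iPS SSEA1neg median against MEFs reversed to -0.19 without replicate 3 of that group. Fewer samples and, with no filter, more genes tested are part of these settings, and otherwise the cause was not tested. Of 186 values of single genes, 5 were no longer called with DESeq2, 6 with RLE, 20 with the GC trend removed, 25 with no filter, 18 with the compared groups alone and 0 under the replicate block, and of 1182 with 1 library left out 177 were not. No value of a single gene reversed. Replicate spread and 3 libraries a group, more than depth, limit these values.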
